A study of Mus musculus with 5 samples.

Results

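The deposited EBF1 sites were searched for dense clusters, called runs here: 3 or more sites on 1 chromosome in which every gap, from the end of 1 site to the start of the next, was under 12.5 kb. The rule was met by 1154 of 7494 sites (15.4%), which fell into 327 runs, and the other 6340 sites lay in no run. The members were chosen by their positions alone, so the gaps, spans and numbers of sites per run below describe that choice and were given no test. The class of a site and its place relative to genes were not used in the choice and could be compared. The gap rule does tie the places of a run's sites to each other.

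The study holds 5 mouse ChIP-seq libraries from pro-B cells, 1 for each group, and all of them start from Ebf1-/- fetal liver cells transduced with EBF1 wt or with a form named YmA. The groups are an input and 2 EBF1 precipitations (EBF1 wt and YmA), and an input and a precipitation of BRG1 in YmA cells. BRG1 is the motor subunit of the BAF complex, which moves nucleosomes. The site list of the EBF1 wt library was used; the other 4 libraries were not analysed here. All EBF1 in these cells comes from the transduced construct, by way of a vector and promoter not given in the sources used here. Every site is a 300 bp interval on mm10 with 1 of 3 text classes, YmA-dep, YmA-ind or CTD-ind. The list gives no height, score or read count, so the depth behind a site is unknown, and the assignment of classes was not given in the sources used here. It holds no expression values either, so the pro-B identity was not checked against marker levels. Intervals in brackets below are exact 95% Clopper-Pearson intervals on counts of sites. They and the exact tests cover the counting of sites within this 1 list, not the spread between animals or cultures.

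EBF1 is a transcription factor of the COE family that is required to start the B-cell program in lymphoid progenitors. It binds as a dimer to a palindromic sequence, it acts together with other factors such as E2A, and it can bind at chromatin that is not yet open. Genes of lymphocytes often carry several enhancers strung along the gene body or the flanking DNA, and groups of binding sites within a distance like the one used here are commonly joined when clustered enhancers are listed. Such clustering of positions says nothing by itself about the strength of an enhancer.

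Sequence could be read where a member lay across a promoter window, the 250 bases before a start in RefSeq on GRCm38.p6. The palindrome searched was TCCCNNGGGA and its core was CCCNNGGG. Each is its own reverse complement, so both strands were covered, and every full palindrome contains a core. The pieces below are the parts of the windows that the member covers, written 5′ to 3′ on the gene's strand. The first 4, examples of members at a start that hold the full palindrome, show it in capitals. The piece of Igll1 shows a core in capitals, and that of Vpreb1 holds neither. The last 2 were chosen because they belong to 1 run at the surrogate light chain genes.

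Vcl, chr14:20929148-20929395, plus strand: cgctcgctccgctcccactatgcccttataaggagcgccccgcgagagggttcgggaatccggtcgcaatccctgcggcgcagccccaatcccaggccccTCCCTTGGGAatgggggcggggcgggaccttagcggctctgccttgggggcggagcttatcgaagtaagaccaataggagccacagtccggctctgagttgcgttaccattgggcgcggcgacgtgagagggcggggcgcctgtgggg
Sdc4, chr2:164443189-164443399, minus strand: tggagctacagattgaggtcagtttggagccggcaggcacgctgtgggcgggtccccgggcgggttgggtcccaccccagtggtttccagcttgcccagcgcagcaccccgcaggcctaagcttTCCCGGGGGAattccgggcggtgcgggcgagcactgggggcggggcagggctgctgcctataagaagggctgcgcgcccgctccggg
Supt4a, chr11:87737301-87737550, plus strand: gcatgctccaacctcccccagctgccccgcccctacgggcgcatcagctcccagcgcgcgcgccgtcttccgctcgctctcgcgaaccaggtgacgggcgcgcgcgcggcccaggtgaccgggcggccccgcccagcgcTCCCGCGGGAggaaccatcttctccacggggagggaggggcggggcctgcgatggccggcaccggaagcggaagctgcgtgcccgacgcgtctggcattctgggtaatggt
Ankrd63, chr2:118704000-118704213, minus strand: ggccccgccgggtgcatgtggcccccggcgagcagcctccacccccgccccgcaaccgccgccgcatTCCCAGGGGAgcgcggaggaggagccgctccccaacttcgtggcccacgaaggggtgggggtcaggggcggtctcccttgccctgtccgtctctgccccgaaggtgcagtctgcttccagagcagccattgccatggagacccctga
Igll1, chr16:16864023-16864235, minus strand: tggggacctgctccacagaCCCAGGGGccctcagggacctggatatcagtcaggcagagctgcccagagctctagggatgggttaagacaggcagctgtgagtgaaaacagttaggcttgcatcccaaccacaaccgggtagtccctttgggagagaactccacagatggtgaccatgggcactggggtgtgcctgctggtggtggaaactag
Vpreb1, chr16:16869256-16869505, minus strand: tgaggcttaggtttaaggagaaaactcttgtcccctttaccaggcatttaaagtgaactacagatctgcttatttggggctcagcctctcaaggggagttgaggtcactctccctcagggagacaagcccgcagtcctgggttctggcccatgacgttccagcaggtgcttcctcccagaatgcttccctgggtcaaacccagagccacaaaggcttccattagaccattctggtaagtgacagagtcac

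For the counts that follow, a window also took in 50 bases from the start on. A match counted here can therefore lie outside the pieces described above, which end before the start. Of the windows that a member covered by 150 bases or more, 10 of 45 held the full palindrome (22.2%, 11.2 to 37.1%). The windows at sites in no run held it in 55 of 347 cases (15.9%, 12.2 to 20.1%), and 0.908% of all 32585 windows held it. The difference between members and other sites was not past the threshold (exact Fisher test, two-sided, Benjamini-Hochberg adjusted p = 0.384). The core was in 31 of 45 member windows (68.9%), in 58.8% of the windows at sites in no run and in 13.8% of all windows. All 6 members printed above are CTD-ind, but they were picked, and 64.3% of all run sites within 1 kb of a start were of that class. A missing match in Vpreb1 says only that these letters are not in the covered part of its window.

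Most runs were short chains. Of the 327 runs, 224 (68.5%) had 3 sites, 61 had 4, 30 had 5 and 12 had 6 or more, with 88 sites among those 12. A run spanned 12.2 kb at the median, from 1.257 kb at Vcl to 77.4 kb at Myl10, with quartiles of 7.74 and 17.9 kb. Neighbouring members were 4149 bp apart at the median, and 149 of 827 neighbouring pairs were under 1 kb apart. The gap limit cut through a continuous range: the longest gap inside a run was 12448 bp, in the run at Il10ra, and the shortest gap that broke a chain was 12503 bp, just before the run at Pde2a. A limit of 12 kb would have given 317 runs and 1108 members, and one of 13 kb would have given 341 runs and 1209 members.

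The run with the most sites lay on chromosome 5 at chr5:136625642-136703076, from the flank of Cux1, a homeodomain factor gene, to just past Myl10, a myosin light chain gene. Its 12 sites were 2 YmA-dep, 5 YmA-ind and 5 CTD-ind, and 2 of the 12 lay inside a protein-coding gene. The next was at Pde2a, which encodes a cyclic nucleotide phosphodiesterase (chr7:101456858-101483820). All 9 of its sites were inside the gene, over 27.0 kb, as 1 YmA-dep, 5 YmA-ind and 3 CTD-ind. The YmA-dep site of this run contains the hairpin of Mir139, whose mature arm is shown with its seed, bases 2 to 8, in capitals to mark what lies under the site.

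mmu-miR-139-5p: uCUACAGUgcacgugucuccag

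A second run of 9 sites lay inside Cyth1, the gene of cytohesin-1, an exchange factor for Arf GTPases in lymphocytes (chr11:118179889-118223998). It held 5 YmA-ind, 1 CTD-ind and 3 YmA-dep sites over 44.1 kb. After a gap of 22.8 kb a further run of 4 sites reached from inside Cyth1, 1.6385 kb from a listed start, into the neighbouring Usp36. The 4 runs of 7 sites were at Snx5 (a sorting nexin), at Wdr66 and Bcl7a (the latter a BAF complex subunit gene), at Ptma (prothymosin alpha), and at Zan and Ephb4. The 5 runs of 6 sites were at Adgrg1, at Fam53b, at Adgrg3 and Drc7, at Sema7a, and at Brd2 with H2-DMa and H2-DMb2. That last run (chr17:34117053-34145218) lies in the MHC class II region, where the H2-DM genes encode the chaperone that loads peptide, and 5 of its 6 sites were CTD-ind. None of these 12 runs with the most sites was of 1 class: 7 held all 3 classes and 5 held 2.

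**Figure D1:**
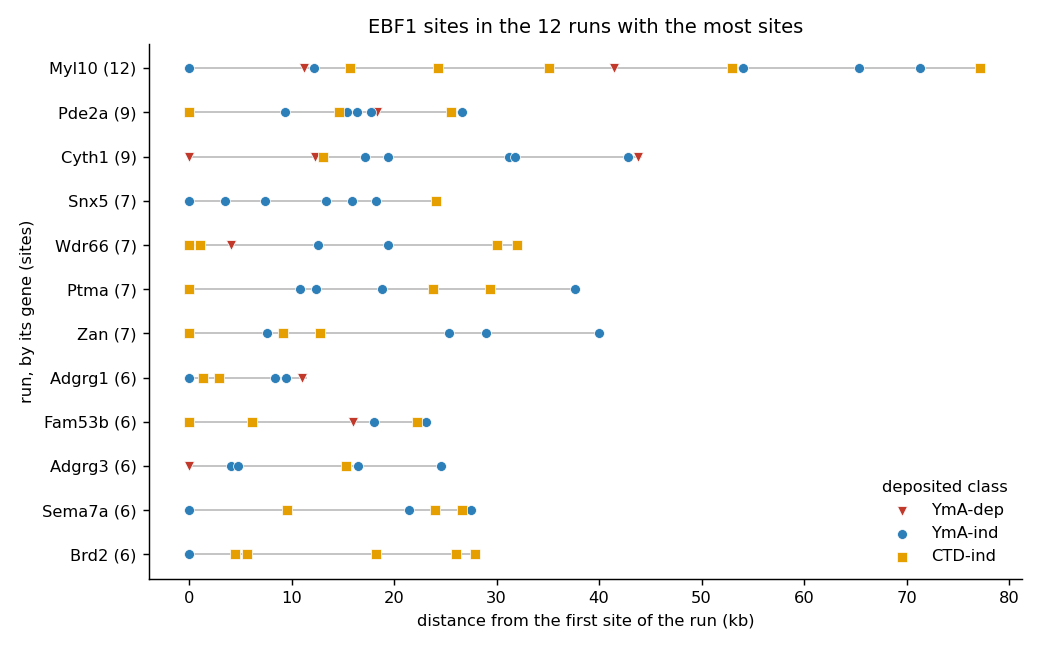
Positions of the sites in the 12 runs with 6 or more sites, as distance in kb from the first site of each run; the marker shows the deposited class and the grey line the span. The sites of the Myl10 run spread over 77.4 kb, those of the Adgrg1 run over 11.4 kb, and no run of this size is of 1 class.

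The shortest runs packed 3 sites into 1 or 2 kb of DNA. At Vcl, the gene of the adhesion protein vinculin, all 3 sites lay within 1 kb of the start, at 0.1525, 0.3175 and 0.8045 kb from it, as CTD-ind, YmA-ind and CTD-ind. The run next to B3gnt2, a glycosyltransferase gene, spanned 1.41 kb and lay over 70.9 kb from the gene, with 3 YmA-ind sites. The runs at Mcfd2 (1.74 kb), Erv3 (1.98 kb) and Ptpn1 (2.09 kb) followed, all of them more than 1 kb from an end of a protein-coding gene, where an end is either boundary of the gene, at its start or at the other side. Whether intervals this close belong to 1 broad region of binding was not tested, since the list gives no signal.

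The genes at runs were long. Each run was named by the protein-coding gene to which most of its sites were assigned, the gene around a site or else the nearest within 100 kb. The 327 runs gave 306 genes, and 5 runs had no protein-coding gene within 100 kb. Genes naming a run had a median length of 40.3 kb, against 25.9 kb for genes with exactly 1 site and 14.9 kb for genes with none. In 133 runs every site was inside a gene, and in 124 of these (37.9% of all runs) a single gene held them all. In 108 runs some sites were inside genes and others not, and in 86 no site was inside a gene. There were 16 genes that named 2 runs each. They include Notch1, the receptor that directs T-cell fate; Cux1; Pim1, a kinase gene downstream of cytokine receptors; Zmiz1, a transcriptional coregulator gene; Arhgef3, an exchange factor gene for small GTPases; and Irf2bp2, a corepressor gene.

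Runs were unevenly spread over chromosomes. Members made up 24.6% of the sites on chromosome 5 and 24.6% of those on chromosome 8, but 5.51% of those on chromosome 13 and 5.19% of those on X. The only run on X was at Bcor, a corepressor gene, with 4 sites. No run lay in an antigen receptor locus, although the Ig kappa locus (chr6:67555636-70726754) alone held 57 sites over 3.17 Mb. Neighbouring kappa sites were 35.1 kb apart at the median, and 14 of the 57 formed pairs under the gap limit without a further site. The Ig heavy chain locus held 14 sites, the Tra/Trd locus 7, the Trb locus 4, the Ig lambda locus 1 and the Trg locus 0, also with none in a run.

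Against lists of genes by function, runs were often at B-lineage genes. Over all 21521 protein-coding genes, 1.77% had a site in a run, 19.6% had any site, and of the genes with a site 9.04% had one in a run. Of the 101 genes on the 4 B-lineage lists, 17 had a site in a run (16.8%) and 79 had any site (78.2%), so that 21.5% of those with a site had one in a run. The lists were drawn up with results of these data known, and no list was tested. By list, 5 of 24 transcription factor genes, 7 of 27 receptor and signalling genes, 4 of 26 genes of the IL-7 receptor and PI3K axis, and 1 of 24 surface and recombination genes had a run. Of the run sites at these 17 genes, 25 of 48 lay inside the gene, and 6 genes had a run site within 1 kb of an end of a protein-coding gene. Of the 48, 5 were YmA-dep, 25 YmA-ind and 18 CTD-ind.

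The transcription factor genes with a run were Foxo1, Ikzf3, Tcf3, Lef1 and Irf8. Ikzf3 encodes Aiolos, and its run of 3 YmA-ind sites lay inside the gene, 3.28 to 12.5 kb from the nearer end of the gene (chr11:98533410-98542899). Tcf3 encodes E2A, the E protein that acts with EBF1, and its 3 sites inside the gene were 1 of each class (chr10:80423590-80430030). Lef1 had 3 YmA-ind sites upstream, 2.89 to 12.3 kb from its start (chr3:131097852-131107552). The runs at Foxo1 (chr3:52392571-52400691) and Irf8 (chr8:120799848-120808317) lay outside their genes, 42.6 to 50.4 kb and 43.3 to 51.5 kb from the nearest end, and each held 2 YmA-ind sites and 1 CTD-ind site. All 5 of these runs were more than 1 kb from an end of the gene, and 4 of the 5 held no YmA-dep site. Most runs shared each of these traits. Of all 327 runs, 96 had a site within 1 kb of an end of a protein-coding gene and 91 held a YmA-dep site.

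Among the pre-B-cell receptor genes the runs were close to the genes, which are short. Igll1 and Vpreb1 encode the surrogate light chain that pairs with the mu heavy chain, and they shared a run of 3 CTD-ind sites over 5.5 kb (chr16:16864023-16869526). One site was centred 0.1875 kb from Igll1 and another 0.1215 kb from Vpreb1; their sequences are those printed above. The related gene Vpreb2 had its own run of 2 CTD-ind sites and 1 YmA-ind site, with 1 site 0.8445 kb from an end of the gene. Near-identical copies of such genes can share reads, and the treatment of such reads was not given in the sources used here; these sites are therefore uncertain. The run at Cd79b, the gene of a signalling chain of the receptor, had a CTD-ind site 0.0585 kb from the gene and 3 YmA-ind sites, reaching Gh on one side and Scn4a on the other (chr11:106305473-106319061).

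The signalling genes had larger bodies and most of their run sites away from the ends. Plcg2, the phospholipase of receptor signalling, had a CTD-ind site 0.3315 kb inside its start, a second CTD-ind site 1.11 kb inside and a YmA-ind site 3.23 kb upstream. Blnk, the adaptor, had 2 YmA-ind and 1 YmA-dep sites, all outside the gene on the side of its start, 1.53 to 16.9 kb from it. Bank1, a scaffold gene, had 2 CTD-ind sites and 1 YmA-dep site in its body, 17.4 to 25.1 kb from an end. On the IL-7 receptor and PI3K axis, Stat5b had 4 sites inside the gene, 2 CTD-ind and 2 YmA-ind. One of its CTD-ind sites was 0.4625 kb from a listed start. Pik3cd, the lymphocyte PI3K subunit gene, had 3 YmA-ind sites inside. Inpp5d, the gene of the opposing phosphatase SHIP1, had 2 YmA-ind sites and 1 CTD-ind site inside, 32.0455 kb or more from an end. Akt2 had 3 sites inside the gene: a CTD-ind site 0.3965 kb from a start, and YmA-ind sites 0.7745 and 2.68 kb from the nearest listed start. Ccr7, a chemokine receptor gene, was the only one of the 17 with 2 YmA-dep sites in its run, which lay 13.2 to 22.5 kb outside the gene.

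Genes of other functions also had runs, and among genes with a site the share with a run was no lower on several of these lists than the 21.5% of the B-lineage lists. Of 26 regulators of small GTPases, 6 had a run site, which is 23.1% of the list and 40.0% of its 15 genes with any site: Arhgef3, Cyth1, Rasgrp2, Rasa3, Rac2 and Rhoh. Of 26 chromatin and transcription regulators, 4 had one, among them Med13l, Hdac7 and Zmiz1. Markers of the T and NK lineages had 4 of 22, and 40.0% of the 10 with any site, among them Notch1, Tcf7 and Il2ra. Tcf7, the gene of TCF-1, had a run of 4 YmA-ind sites and 1 CTD-ind site. Cebpb was the only 1 of 18 myeloid genes, Actb and Rpl13a were the 2 of 15 housekeeping genes (of 4 with any site), and none of 14 erythroid, 15 hepatocyte, 15 neuronal and 16 cell cycle genes had a run site. Cebpb, a granulocyte and macrophage factor gene, had 2 CTD-ind sites assigned to it in a run of 3 CTD-ind sites, 1 of them 0.2055 kb from the start. At Hspa1b and Hspa1a, heat shock genes on no list, 3 of 4 run sites were CTD-ind. Their 250-base windows differ at 3 positions (98.8% equal), so reads at these sites may not be told apart and the run is uncertain.

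Runs had nearly the same class mix as other sites. Of the 1154 members, 615 (53.3%, 50.4 to 56.2%) were YmA-ind, 426 (36.9%, 34.1 to 39.8%) were CTD-ind and 113 (9.79%, 8.14 to 11.7%) were YmA-dep. The sites in no run were 12.2% YmA-dep, 54.3% YmA-ind and 33.5% CTD-ind. The lower share of YmA-dep in runs, by 2.45 percentage points, was just past the threshold (exact Fisher test, adjusted p = 0.0490). It was lost in every alternative tried for it: with 1 site per run the shares were again 9.79 and 12.2%, with an adjusted p = 0.34 by the exact test. Neither CTD-ind (exact test, adjusted p = 0.0656) nor YmA-ind (exact test, adjusted p = 0.607) differed past the threshold. The class mix showed no steady change with the number of sites in the chain: CTD-ind was 35.7% in runs of 3, 36.5% in runs of 4, 42.0% (34.0 to 50.3%) in runs of 5 and 38.6% (28.4 to 49.6%) in longer runs. The outermost sites of runs were 36.7% CTD-ind and the inner sites 37.2%.

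**Figure D2:**
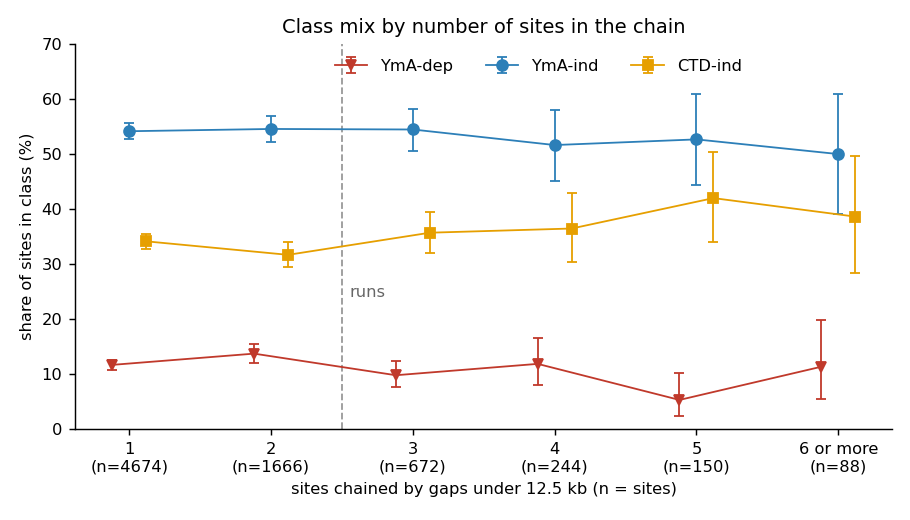
Share of sites in each deposited class (per cent) by the number of sites chained by gaps under 12.5 kb, with exact 95% intervals; chains of 3 or more, right of the dashed line, are the runs. YmA-ind stays between 50.0 and 54.6%, CTD-ind between 31.7 and 42.0% and YmA-dep between 5.33 and 13.7%.

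Most runs mixed classes. All sites were of 1 class in 63 runs (19.3%), of 2 classes in 221 and of 3 classes in 43. YmA-ind and CTD-ind sites occurred together in 218 runs. The runs of 1 class comprised 47 with YmA-ind sites, 14 with CTD-ind sites and 2 with YmA-dep sites. The YmA-dep runs were a triplet at Srgap3 and a triplet at Prdm1, the gene of the plasma cell factor Blimp-1 (chr10:44605240-44615947). These 2 are named because they are so few, after their values were seen. Of 224 triplets, 53 (23.7%) were of 1 class. Among 2108 non-overlapping sets of 3 successive sites in no run, 444 (21.1%) were, a difference not past the threshold (exact Fisher test, adjusted p = 0.456).

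The runs of 1 class with 4 or more sites numbered 10, and none had more than 5 sites. Runs of 5 YmA-ind sites lay at Elovl5, a fatty acid elongase gene (all inside the gene, over 25.8 kb), at Irf2bp2 and at Il10ra, the interleukin-10 receptor gene. Runs of 5 CTD-ind sites lay at Rai1 (all inside the gene, 9.18 to 23.7 kb from an end) and at Zfp36, the gene of the mRNA decay factor tristetraprolin. The Zfp36 run spread over 11.4 kb and also had sites assigned to Plekhg2 and Med29. Runs of 4 YmA-ind sites lay at Sorcs2, Plxna1, Tmtc1, Tmprss3 and 9830107B12Rik.

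Most runs with a YmA-dep site held only 1. YmA-dep sites occurred in 91 runs: 75 of these held 1 of them, 10 held 2 and 6 held 3. Of the other sites in those 91 runs, 58.6% were YmA-ind, the rest CTD-ind, and in runs without a YmA-dep site 59.2% were YmA-ind. YmA-dep sites were next to each other in 14 of 827 pairs inside runs (1.69%) and in 115 of 5814 pairs farther apart (1.98%). These 2 shares do not allow for the share of the class itself, which was 9.79% in runs and 12.2% in no run. Whether YmA-dep sites clump within runs was not tested.

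Neighbouring sites in a run were of the same class in 394 of 827 pairs (47.6%, 44.2 to 51.1%), and neighbours farther apart than the gap limit in 2536 of 5814 (43.6%, 42.3 to 44.9%). The difference of 4.02 points was not past the threshold (exact Fisher test, adjusted p = 0.0700). By distance, and counting also pairs of sites outside runs, the share was 54.1% (45.7 to 62.4%) for 146 pairs under 0.5 kb apart, 47.6% from 0.5 to 2 kb and 43.3% from 2 to 5 kb. Beyond 250 kb it was 43.6%.

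**Figure D3:**
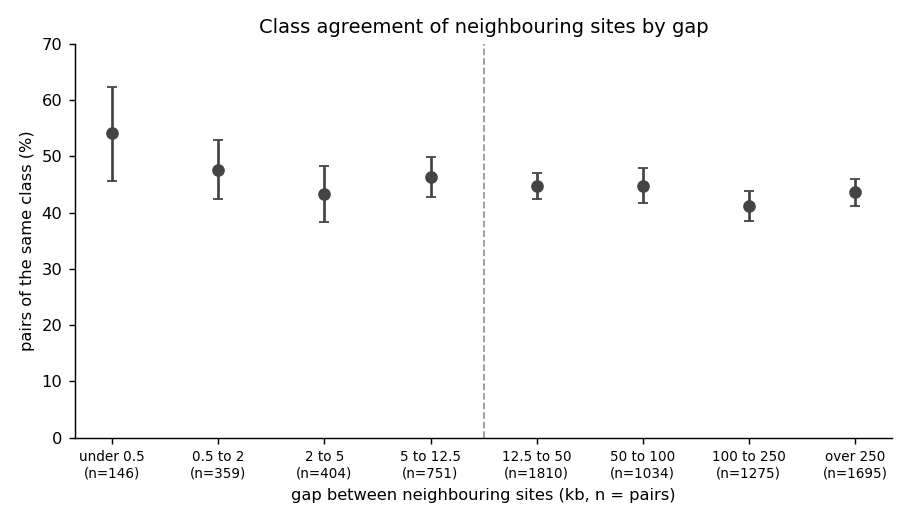
Share of neighbouring site pairs of the same class (per cent) by the gap between them in kb, with exact 95% intervals; the dashed line marks the gap limit of 12.5 kb. The closest pairs, under 0.5 kb, are at 54.1%, and all other ranges lie between 41.2 and 47.6%.

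Counted by sites, members were found at gene starts less often than other sites, and among the classes only CTD-ind passed the test. Starts with a known strand were at hand for 17274 protein-coding genes (80.3%), on all chromosomes but 18, which left out 27 members. Of 1127 members, 115 (10.2%, 8.50 to 12.1%) were centred within 1 kb of a start, against 842 of 6169 other sites (13.6%, 12.8 to 14.5%; exact Fisher test, adjusted p = 0.00531). Among CTD-ind sites the shares were 74 of 416 in runs (17.8%) and 579 of 2071 in no run (28.0%), a difference of 10.2 points (exact test, adjusted p = 4.88e-05). For YmA-ind they were 6.0 and 7.45% (exact test, adjusted p = 0.34), and for YmA-dep 4.5 and 1.86% (exact test, adjusted p = 0.157). Whether the classes differ in this respect was not tested. With either end of a protein-coding gene in place of its start, CTD-ind members were at 17.4% and other CTD-ind sites at 31.3% (exact test, adjusted p = 2.52e-08). That call held under each alternative tried, including 1 site per run, the first by position (18.3 against 31.3%, exact test, adjusted p = 0.00667). The gap rule can by itself lower the shares of run sites, because not all sites of a run fit at 1 gene end or start. Taking the first site of each run does not remove this, so these tests cannot tell it from another difference. With 1 site per run CTD-ind at starts was 18.2 against 28.0% (exact test, adjusted p = 0.0579). Starts over all classes were then 11.3 against 13.6% (exact test, adjusted p = 0.384). For ends over all classes, the shares were 10.8 and 16.5% of all sites (exact test, adjusted p = 3.27e-06), but 12.5 and 16.5% with 1 site per run (exact test, adjusted p = 0.13).

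**Figure D4:**
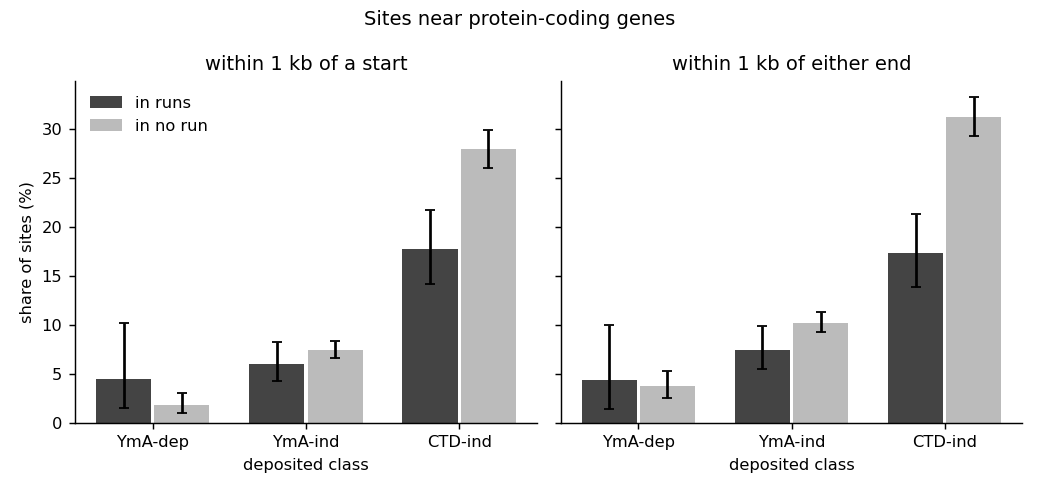
Share of sites (per cent) centred within 1 kb of a protein-coding gene's start (left) or of either end (right), by deposited class, in runs (dark) and in no run (light), with exact 95% intervals. The CTD-ind bars are 17.8 and 28.0% at starts and 17.4 and 31.3% at ends; for the other classes the intervals overlap.

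Away from starts, members lay within 50 kb of a start more often than other sites. Of the members farther than 1 kb from a start, 727 of 1012 (71.8%) were within 50 kb of one, against 3245 of 5327 other sites (60.9%, 59.6 to 62.2%; exact Fisher test, adjusted p = 3.35e-10). With 1 site per run the shares were 73.3 and 60.9% (exact test, adjusted p = 4.07e-05). Of the 1012 members, 179 shared a run with a site at a start, and the gap limit by itself keeps most of these near that start. Both comparisons include such runs. A comparison without them was not made, so how much of the difference the rule fixes is not known. All members had a median of 4 protein-coding genes within 100 kb and sites in no run had 3, with quartiles of 2 and 6 in both. The comparison was not adjusted for gene density, and its part in the difference was not tested. For YmA-dep sites the median distance to a start was 20.8 kb in runs and 40.8 kb in no run, for YmA-ind 22.0 and 27.9 kb, and for CTD-ind 14.5 and 12.1 kb. Inside genes lay 57.6% of members and 56.0% of other sites (exact test, adjusted p = 0.406). Of the sites inside genes, 56.7% in runs and 59.4% in no run were nearer to the start than to the other end, by position along the gene (exact test, adjusted p = 0.374).

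Where a run touched a start, the site at the start and its companions differed in class. A site within 1 kb of a start occurred in 82 of the 318 runs on chromosomes with known starts (25.8%), and 26 runs had 2 or more. Of these 115 start sites, 74 (64.3%, 54.9 to 73.1%) were CTD-ind, and of the start sites in no run 68.8% were. Of the 179 other sites of the same runs, 61 (34.1%, 27.2 to 41.5%) were CTD-ind, a difference of 30.3 points (exact Fisher test, adjusted p = 2.94e-06). Both groups come from the same 82 runs, and the test did not take this pairing into account. Sites in no run, too, were more often CTD-ind at starts (68.8%) than away from them (28.0%). In the runs with no site at a start, 33.7% were CTD-ind, beside the 34.1% of the companions; this pair was not tested. Away from starts, CTD-ind made up 33.8% of members and 28.0% of other sites (exact test, adjusted p = 0.000968), a call that was lost with 1 site per run (34.0 against 28.0%, exact test, adjusted p = 0.0656). The run at Tcf7 shows this order: its CTD-ind site was 0.4665 kb from the start and its 4 YmA-ind sites 9.20 to 15.8 kb away, inside the gene.

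Runs were then set against single sites at genes of like length, since long genes have more room for several sites. The 306 genes naming a run were compared with 2697 genes that had exactly 1 site, in no run, within 5 bins of gene length. Of 1044 run sites, 94 (9.0%) were within 1 kb of an end of a protein-coding gene, and of the 2697 single sites 707 (26.2%) were. The odds ratio over the bins was 0.326 (0.255 to 0.412; exact Mantel-Haenszel test, adjusted p = 1.48e-23). The share was lower for runs in each bin, at 23.6 against 40.1% for genes up to 10.0 kb and at 4.33 against 13.2% for genes above 82.5 kb. This counts sites, and a run brings at least 3 of them to a gene. Counted by genes, 81 of 306 run genes (26.5%) had at least 1 of their run's sites near an end, against 26.2% of single-site genes, with an odds ratio of 1.19 (0.889 to 1.58; exact Mantel-Haenszel test, adjusted p = 0.34). The interval does not settle whether run genes and single-site genes differ in this respect.

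**Figure D5:**
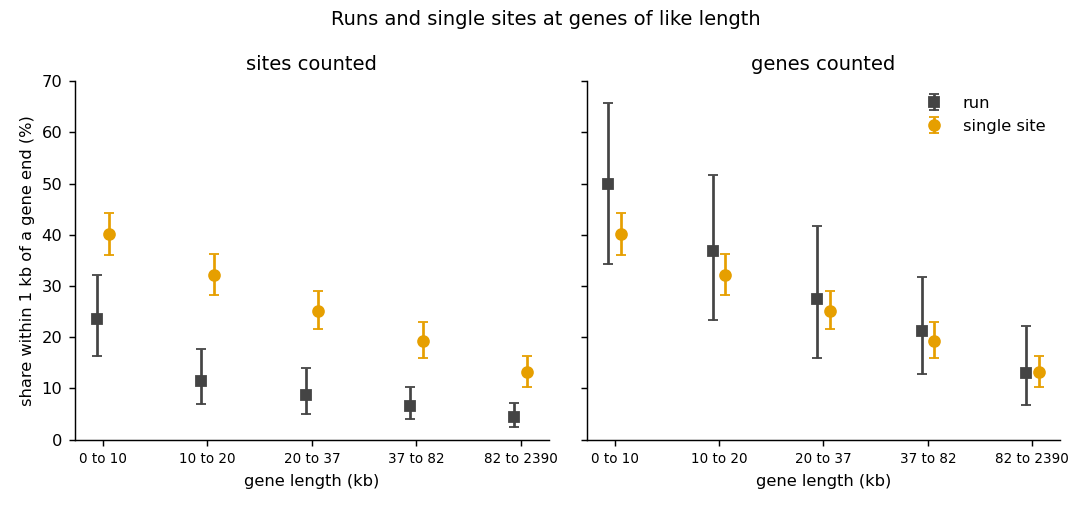
Share within 1 kb of a protein-coding gene's end (per cent) in 5 bins of gene length, for genes with a run and genes with exactly 1 site, with exact 95% intervals. Counted by sites (left) runs are lower in every bin, from 23.6 against 40.1% to 4.33 against 13.2%; counted by genes (right) the intervals overlap in every bin.

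Taken over all bins together, the class mix did not separate runs from single sites at genes of like length. CTD-ind was 37.1% of run sites and 39.0% of single sites (odds ratio 1.00, 0.858 to 1.17; exact Mantel-Haenszel test, adjusted p = 1). YmA-ind was 53.3 and 50.9% (odds ratio 1.06, 0.913 to 1.23; exact test, adjusted p = 0.513), and YmA-dep 9.67 and 10.1% (odds ratio 0.853, 0.661 to 1.10; exact test, adjusted p = 0.34). For YmA-dep the bins did not share a direction. From the shortest to the longest genes it was 9.76, 10.3, 7.56, 12.2 and 8.36% of run sites. Among single sites it was 6.80, 6.72, 9.09, 12.7 and 15.9%. No bin was tested by itself. Inside the gene lay 60.2% of run sites and 59.8% of single sites. Within bins the odds of lying inside were lower for run sites (odds ratio 0.788, 0.673 to 0.924; exact test, adjusted p = 0.00869). That difference was in the 3 bins of shorter genes, as at 23.6 against 37.7% up to 10.0 kb, while above 82.5 kb the shares were 79.3 and 76.8%. It was not past the threshold with 1 site per run (58.1 and 59.8% in all, exact test, adjusted p = 0.0776). Runs spanned 12.2 kb at the median, so many cannot fit inside the shorter genes, where a single site can. How much of the difference the span fixes was not tested.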

How the data were processed

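The submitters' processing notes name Bowtie2, SAMtools, deepTools and the builds GRCm38 and mm10, without versions; the peak caller was not given in the sources used here. Deposited by the authors was a list of 7494 site positions in bp with a text class per site (neither is a score or count). Starts were shifted to count from 1. Genes came from RefSeq on GRCm38.p6 (21521 protein-coding); 345 genes on unplaced scaffolds were left out. "Near" means that the site's centre was within 1 kb. Shares were compared with two-sided exact Fisher tests (Python 3.11.15, scipy 1.17.1), or exact Mantel-Haenszel tests over 5 bins of gene length (R 4.3.3). P-values were adjusted by Benjamini-Hochberg over 28 contrasts, with a threshold of 0.05. All tests take sites, or genes, of 1 library as units; sites of a run share a gene and are not replicates. The code was tested on simulated lists: without a planted difference 0 of 10 lists gave a call, and with one of 10 points 10 of 10 did. Outside planted runs the simulated sites were evenly spaced, each site's class was drawn independently, and a call was an unadjusted p under 0.05. The simulation checks the code, not the error rate of the tests reported here.

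The members, gene lists and contrasts were chosen with earlier results of these data known; the comparisons at and around starts, along the gene, of companions, of triplets and of genes counted were added after the data were seen. Genes are named for the 12 runs with most sites, the 5 shortest, runs of 4 or more sites of 1 class, and runs at list genes; other names are examples chosen after their values were seen. A few genes on the lists are counted but not reported by name here.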

Additional observations from a re-analysis of the deposited data

How the results depend on the processing

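Across 165 alternative values for 44 results, 77 of the 103 with a test kept their direction and their side of the threshold. Values below are differences in percentage points, runs minus comparison sites, unless said otherwise. Of the results past the threshold, CTD-ind at gene ends and sites within 50 kb of a start held in every alternative tried. No alternative took out what the gap rule itself can fix in these 2 results. Not all sites of a run fit at 1 gene end, and companions of a start site lie near that start. Sites near a gene end at like length held in the planned ones but not where genes were counted (3.09). CTD-ind at starts against companions had no alternative. The lower YmA-dep share in runs lost its call with gaps of 5 kb (-3.33) and 25 kb (-1.08), 1 site per run (-2.45), without the Ig kappa locus (-2.10), without chromosome X (-2.43) and against sites with no neighbour within 100 kb (-2.45). Calls were gained by the higher CTD-ind share at a gap of 25 kb (3.08) and by YmA-dep inside genes with 1 site per run (24.3, on 32 run sites, against 5.43 over all members). Gene ends over all classes lost theirs with 1 site per run (-3.94), as did gene starts over all classes (-2.33, and -2.01 at a gap of 5 kb and -2.28 with near as 2.5 kb), CTD-ind at starts (-9.78, and -8.21 at 5 kb), CTD-ind away from starts (5.96) and sites inside genes of like length (-5.82). Reversed, with neither value past the threshold, were YmA-dep at gene ends (-1.09 at 5 kb, -0.17 at 25 kb, -0.61 with 1 site per run, -0.41 against sites with no neighbour within 100 kb), YmA-dep inside genes (-1.85 at 5 kb), YmA-ind at starts (0.53 with near as 2.5 kb), the palindrome with 1 mismatch allowed (-4.80), CTD-ind at like length (-0.34 in 10 bins, -2.97 with only sites inside the gene) and YmA-ind at like length (-2.62 with 1 site per run). The number of runs was 129 at 5 kb, 560 at 25 kb and 103 with 4 sites required, with 413, 2190 and 482 members; B-lineage list genes with a run site were 7 (6.93%, against 0.641% of all genes) and 28 (27.7%, against 3.74%) at those gaps. The cause of these changes was not tested. Comparisons against sites with no neighbour within 100 kb at gene ends, starts and beyond, of genes counted, and 1 site per run away from starts were chosen after seeing the data. No paired analysis was possible because a single library entered. The list has no signal values, so no stricter site threshold could be tried.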
